A study of Mus musculus with 4 samples.

Results

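Integrins are cell surface receptors made of an α chain and a β chain, and T cells use them to stop on vessel walls, to enter tissues and to hold on to other cells. A β chain can be shared by several α chains and an α chain by several β chains, so the transcript levels of the chains can be set side by side for each known heterodimer. In regulatory T (Treg) cells, integrins that bind cadherin or addressins are known for retention in and homing to the gut, and αv integrins are known for releasing active TGF-β from its latent form. The transcripts of 10 integrin subunits were examined in Treg cells held with thymic stromal lymphopoietin (TSLP) or with PBS. They were taken by gene symbol from the 24418 genes listed, and comprised the 5 α chains Itgae, Itgal, Itga4, Itgav and Itga6 and the 5 β chains Itgb1, Itgb2, Itgb3, Itgb7 and Itgb8. All 10 were read in every library and passed the filter on low values.

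Treg cells sorted from spleens and lymph nodes of Foxp3yfpCre mice, aged 8 to 12 weeks, received TSLP at 100 ng/mL or PBS for 3 h, and RNA was sequenced in 2 libraries of each group (PBS 1, PBS 2, TSLP 1 and TSLP 2). The cells of both groups carry the same allele, in which a yellow fluorescent protein fused to Cre recombinase is made from the Foxp3 gene. The age is that given for the mice of the study in general, and the sources used here do not say whether the libraries came from separate animals or cultures, so p-values measure only the spread between these libraries, which may be technical. The PBS libraries held 11328132 and 10724392 reads on genes and the TSLP libraries 11761234 and 10271571, and values are given as normalized counts, which are reads corrected by the size factor of their library. A gene without reads may still have had up to 3, a limit that covers counting error only. In bulk RNA of this kind, fewer cells of a type and less RNA per cell cannot be told apart.

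The libraries were first checked for the labelled cell type, in cpm (reads scaled to a total of 1000000 on genes). Cd4 ranged from 512 to 602, Cd3e from 232 to 261 and Ctla4, an inhibitory receptor of Treg cells, from 1142 to 1284 over the 4 libraries. The other T cell markers were highest in PBS 1, with Cd3d at 327 against 193 to 257 in the other libraries, Cd3g at 263 against 185 to 233 and Lck at 419 against 345 to 404. The Cd3g values of the groups did not overlap and were lower with TSLP (unadjusted p = 0.263 by limma), an order that 14.4% of all genes tested had. Foxp3, the transcription factor that defines Treg cells, was at 222 in PBS 1 and at 472, 407 and 470 in PBS 2, TSLP 1 and TSLP 2. Ikzf2, also a transcription factor of Treg cells, was at 568 in PBS 1 and at 953 to 996 in the others, and Il2ra, the high-affinity chain of the IL-2 receptor, was at 342 and at 433 to 498. Ikzf4, a relative of Ikzf2, was at 72.7 in PBS 1 and at 135 to 175 in the other 3 libraries, while Tnfrsf18, a costimulatory receptor, was highest in PBS 1 at 532 and lay between 348 and 427 in the others. PBS 1 therefore stood apart from the other libraries before any integrin gene was considered. It also stood apart by gene length. Across 2679 well-read genes (mean of 1000 reads or more), longer exons went with a lower PBS 1 value relative to the mean of the other libraries (Spearman rho = -0.66, across genes that are not independent of each other). Taken likewise against their respective remainder, which includes PBS 1, the rho was 0.57 for PBS 2, 0.40 for TSLP 1 and 0.30 for TSLP 2, and the mean TSLP minus PBS difference had a rho of 0.52. PBS 2 is the only control in the values without PBS 1. The fold changes of the 10 integrin genes and of the chain ratios are therefore given with and without PBS 1 below, and some also with the trend over exon length removed from each library. The part of the Foxp3 level in the integrin values was not tested.

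Of the 10 integrin subunits, 0 differed between TSLP and PBS at an adjusted p under 0.05 by limma with Benjamini-Hochberg adjustment over all 11392 genes tested, and 0 had an unadjusted p under 0.05. Over all genes tested, 0.0% had an adjusted and 1.69% an unadjusted p under 0.05 by limma, of which 0.772% were higher and 0.913% lower with TSLP. edgeR (with TMM scaling) and DESeq2 on the recovered reads also called 0 of the 10 at either limit, and over all genes each gave an adjusted p under 0.05 for 0.0% and an unadjusted p under 0.05 for 2.05%. The median log2 fold change of the 10 genes (TSLP against PBS) was 0.21, with 8 higher and 2 lower, beside 0.01 over all genes tested, and it was -0.02 without PBS 1. PBS 1 had the lowest value of the 4 libraries in 8 of the 10 genes, beside 34.0% of all genes tested, and the highest value in 1 of them, Itgb7, beside 32.4%.

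**Figure D1:**
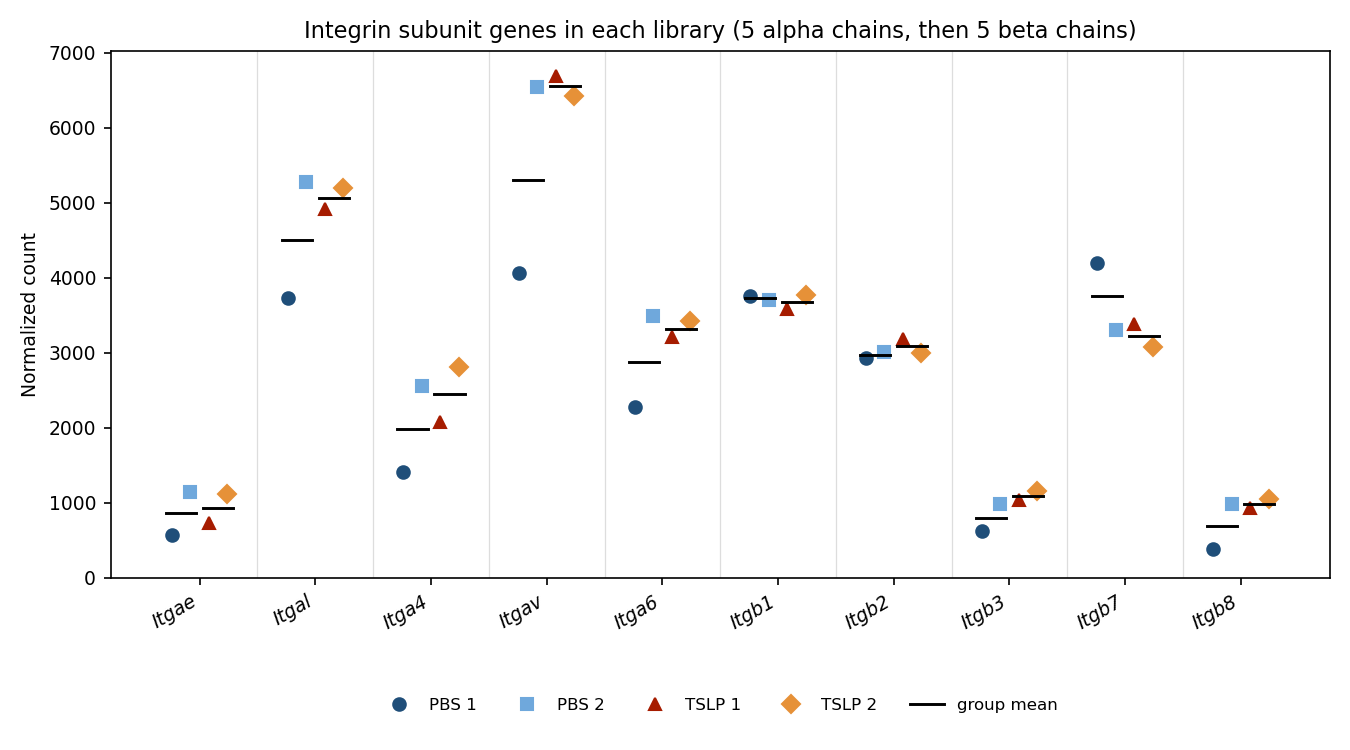
Normalized counts of the 10 integrin subunit genes in each of the 4 libraries, with the α chains on the left and the β chains on the right; each symbol is a library and each black line is the mean of the 2 libraries of a group. PBS 1 lies below the other 3 libraries in all 5 α chains and in Itgb2, Itgb3 and Itgb8, whereas the 4 libraries of Itgb1 and of Itgb2 lie close together.

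Itgb1, Itgb2 and Itgb7 encode the β chains of the integrins that lymphocytes use most for adhesion and homing, and the transcripts of Itgb1 and Itgb2 varied little between the libraries. Itgb1 (mm10 chr8:128685654-128733200, forward strand) encodes β1, the partner of many α chains in receptors for fibronectin, laminin and VCAM-1. Its normalized counts were 3753 and 3706 with PBS and 3582 and 3775 with TSLP. The highest library was 1.05 times the lowest, and the TSLP values enclosed the PBS values. Its log2 fold change was -0.02 with a 95% interval from -0.49 to 0.45 (unadjusted p = 0.924, adjusted p = 1.0 by limma), which corresponds to between 0.711 and 1.37 times the PBS level. Itgb2 (chr10:77530252-77565708, forward strand) encodes β2, the chain of the leukocyte integrins. It had 2932 and 3004 with PBS and 3185 and 2990 with TSLP, a span of 1.09-fold over the 4 libraries with overlapping groups. For Itgb2 the log2 fold change was 0.06, with a 95% interval from -0.41 to 0.53 by limma. When any library was left out, the log2 fold change stayed between -0.06 and 0.02 for Itgb1 and between 0.01 and 0.10 for Itgb2.

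Itgb7 (chr15:102215995-102231944, reverse strand) encodes β7, which pairs with αE or α4 in gut retention and homing. Its normalized counts were 4200 and 3305 with PBS and 3383 and 3068 with TSLP. It was the only one of the 10 genes with its highest value in PBS 1, which stood at 127% of the median of the other libraries. The groups overlapped, since TSLP 1 lay above PBS 2. Its log2 fold change of -0.21 (95% interval from -0.72 to 0.30, unadjusted p = 0.377, adjusted p = 1.0 by limma) became -0.04 without PBS 1. Itgb7 has the shortest exon length of the 10 genes, 2770 bases, and Itgb2 and Itgb1 follow with 3052 and 4081 bases.

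Itgb3 and Itgb8, which encode further partners of αv, had fewer reads than the other β chains and varied more. Itgb3 (chr11:104608000-104670476, forward strand) encodes β3, which with αv binds vitronectin and other proteins carrying an RGD motif and with αIIb forms the fibrinogen receptor of platelets. It had normalized counts of 615 and 983 with PBS and 1029 and 1159 with TSLP. The lower TSLP library exceeded the higher PBS library, which was so for 1 of the 10 integrin genes and for 14.5% of all genes tested, and the reverse order was found for 0 of the 10 and 14.4% of all genes (28.9% of genes in either direction). The log2 fold change was 0.49 (standard error 0.28, 95% interval from -0.14 to 1.12, unadjusted p = 0.114, adjusted p = 1.0 by limma), so that the interval reached from a little below the PBS level to 2.17 times it. Without PBS 1 it was 0.15, and TSLP 1 lay close to PBS 2. The most abundant platelet transcripts were sought because platelets are rich in β3. Pf4, Ppbp, Gp9 and Gp1bb had no reads in any library, which allows up to 0.255 to 0.292 cpm, and Itga2b, the platelet partner of Itgb3, was read 29 and 43 times under PBS and 9 and 50 times under TSLP.

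Itgb8 (chr12:119158022-119238802, reverse strand) encodes β8, which with αv is known to activate the latent TGF-β that Treg cells carry on their surface. Its normalized counts were 386 and 982 with PBS and 923 and 1042 with TSLP. The lower PBS library, PBS 1, held 39.3% of the median of the other libraries, the lowest share among the 10 genes, and PBS 2 lay between the TSLP libraries, so the groups overlapped. The log2 fold change was 0.67 (standard error 0.40, 95% interval from -0.22 to 1.57, unadjusted p = 0.124, adjusted p = 1.0 by limma), and it was -0.00 without PBS 1 and 1.34 without PBS 2. The 3 libraries other than PBS 1 spanned 1.13-fold. With the trend of each library over exon length removed, the value was 0.51 (unadjusted p = 0.107 by limma). With the replicate number as a block, Itgb8 was the 1 integrin gene with an unadjusted p under 0.05 by limma (unadjusted p = 0.0491 by limma, beside 2.26% of all genes). So it was with the block and the trend removal together (unadjusted p = 0.0436 by limma, beside 3.69%). In that setting Itgb3 lay just over the limit, with a log2 fold change of 0.46 (unadjusted p = 0.05003 by limma). Whether the shared numbers pair the libraries is not known, and adjusted over all genes neither Itgb8 value passed.

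**Figure D2:**
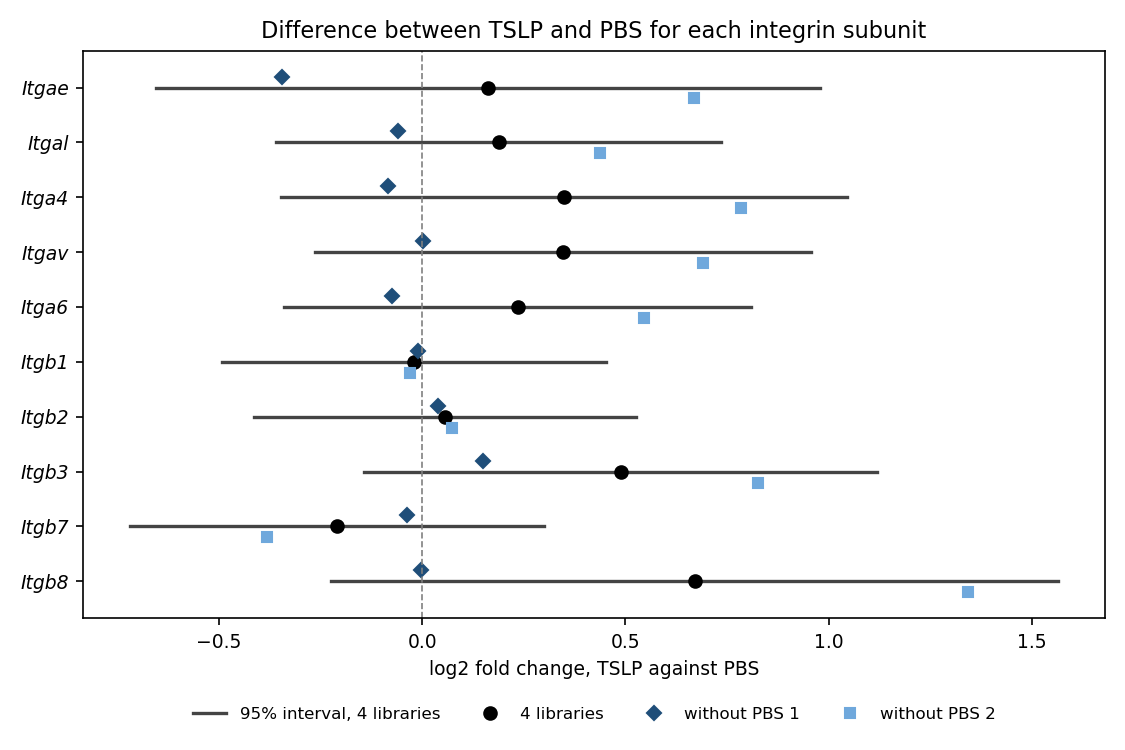
Log2 fold change of TSLP against PBS for each integrin subunit: black circles with lines give the estimate over 4 libraries and its 95% interval from limma, dark diamonds the estimate without PBS 1 and light squares the estimate without PBS 2. All 10 intervals include 0, and the diamonds lie near 0 for all genes but Itgae (-0.35) and Itgb3 (0.15).

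Among the α chains, Itgae (chr11:73090583-73147446, forward strand) encodes αE (CD103), which with β7 binds E-cadherin on epithelial cells and marks a share of Treg cells. Its normalized counts were 566 and 1145 with PBS and 726 and 1117 with TSLP. In each group the library numbered 1 was the lower, and the libraries of a group differed far more than the group means of 855 ± 409 and 922 ± 276 (SD, n = 2). The log2 fold change was 0.16 with a 95% interval from -0.66 to 0.98 (unadjusted p = 0.665, adjusted p = 1.0 by limma), the widest interval among the α chains. Its sign was reversed without PBS 1 (-0.35) and without TSLP 2 (-0.15). Gsg2, an intronless kinase gene on the opposite strand within Itgae, had 126 to 187 reads, and the strand setting of the counting is not given in the sources used here.

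Itga4 (chr2:79255426-79333123, forward strand) encodes α4, which with β1 binds VCAM-1 and fibronectin and with β7 binds the gut addressin MAdCAM-1. It was the member most like Itgae in profile, with a distance of 0.25 on the log2 scale over the 4 libraries after centring each gene on its mean. It had normalized counts of 1403 and 2559 with PBS and 2079 and 2805 with TSLP, again with the lower value in the library numbered 1 of each group. The groups overlapped, and the log2 fold change of 0.35 (95% interval from -0.35 to 1.05, unadjusted p = 0.285, adjusted p = 1.0 by limma) became -0.08 without PBS 1. The end of Itga4 overlaps Cerkl on the opposite strand, which had at most 15 reads in a library.

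Itgal, Itga6 and Itgav shared a profile in which PBS 1 was low and the other 3 libraries were close. Itgal (chr7:127296260-127335138, forward strand) encodes αL, which with β2 forms LFA-1, the receptor for ICAM-1 in T cell adhesion and in the contact with antigen-presenting cells. Its normalized counts were 3734 and 5269 with PBS and 4919 and 5192 with TSLP. Without PBS 1 the highest library was 1.07 times the lowest, and the log2 fold change went from 0.19 (95% interval from -0.36 to 0.74, unadjusted p = 0.457 by limma) to -0.06. Itga6 (chr2:71745616-71858416, forward strand) encodes α6, a laminin receptor chain, and was the member closest to Itgal in profile, at a distance of 0.10. It had 2270 and 3492 with PBS and 3212 and 3419 with TSLP, and a log2 fold change of 0.24 (95% interval from -0.34 to 0.81, unadjusted p = 0.379 by limma) that became -0.08 without PBS 1. Both genes had overlapping groups. Itga6 overlaps 2 noncoding transcripts on its own strand, Gm13662 and Gm13663, and a noncoding transcript and a pseudogene on the opposite strand. The reads of Itga6 may therefore include some of theirs.

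Itgav (chr2:83724397-83806916, forward strand) encodes αv, the common partner of β3 and β8 and one of the partners of β1. It had the most reads of the 10 genes in total, although Itgb7 had more in PBS 1. The normalized counts of Itgav were 4056 and 6542 with PBS and 6691 and 6418 with TSLP. PBS 1 stood at 62.0% of the median of the other libraries, and the other 3 spanned 1.04-fold. The log2 fold change was 0.35 (95% interval from -0.26 to 0.96, unadjusted p = 0.230, adjusted p = 1.0 by limma) and 0.00 without PBS 1. A pseudogene and a noncoding transcript lie on the opposite strand within Itgav.

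The dependence on the PBS libraries was not symmetric. Without PBS 2, which leaves PBS 1 as the only control and assumes that it varies like the TSLP libraries, 6 of the 10 genes had an unadjusted p under 0.05 by limma, beside 16.3% of all genes, and all 6 were higher with TSLP. They were Itgal, Itga4, Itgav, Itga6, Itgb3 and Itgb8, with log2 fold changes from 0.44 for Itgal to 1.34 for Itgb8. Without PBS 1, 0 of the 10 had an unadjusted p under 0.05 by limma, beside 2.31% of all genes. Over the 10 genes, the log2 ratio of PBS 1 to the median of the other libraries ranged from -1.35 for Itgb8 to 0.35 for Itgb7. It fell with exon length, with a Spearman rho of -0.71 over 10 genes that share the same 4 libraries. Itgae departed from this order, since its exon length of 4581 bases was close to that of Itgb1 while PBS 1 held 50.7% of the median of the others in Itgae and 101% in Itgb1. With the length trend removed from each library, the median log2 fold change of the 10 genes was 0.14, and 0 of them had an unadjusted p under 0.05 by limma. The log2 fold change was then 0.18 for Itgae, 0.14 for Itgal, 0.14 for Itga4, 0.19 for Itgav and 0.12 for Itga6. Among the β chains it was 0.14 for Itgb2, 0.46 for Itgb3 and -0.11 for Itgb7.

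Levels of different genes were compared per length, as cpm divided by kilobases of exon (the union of all annotated exons). On this scale the order by the mean over the 4 libraries was Itgb7 (116 ± 15.4, SD, n = 4), Itgb2 (91.2 ± 2.77), Itgb1 (83.4 ± 2.99), Itgal (66.9 ± 10.6), Itgav (50.7 ± 10.9), Itga6 (31.6 ± 6.04), Itgae (17.9 ± 6.04), Itgb3 (14.8 ± 3.73), Itga4 (14.6 ± 4.24) and Itgb8 (6.94 ± 2.56). The 3 leading places were thus held by β chains that several α chains share. The ranges over the 4 libraries did not overlap between Itgb7 and Itgb2, between Itgb2 and Itgb1, between Itgb1 and Itgal, or between Itga4 and Itgb8. They overlapped for all other neighbours in the order, from Itgal to Itga4.

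This order depends on the length used, because Itga4 (13978 bases of exon), Itgb8 (11060) and Itgav (10744) are much longer in exons than in coding sequence (3096, 2301 and 3132 bases). With reads divided by the longest coding sequence, Itgav came first (174 ± 37.4, SD, n = 4), ahead of Itgb1 (142 ± 5.10), Itgb7 (133 ± 17.6), Itgal (122 ± 19.3) and Itgb2 (120 ± 3.65), and Itgae came last (23.4 ± 7.90). With the longest transcript the order was that of the exons except that Itga4 stood before Itgb3. Itgae, Itgb3, Itga4 and Itgb8 were the 4 lowest of the 10 genes under each of the 3 lengths.

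**Figure D3:**
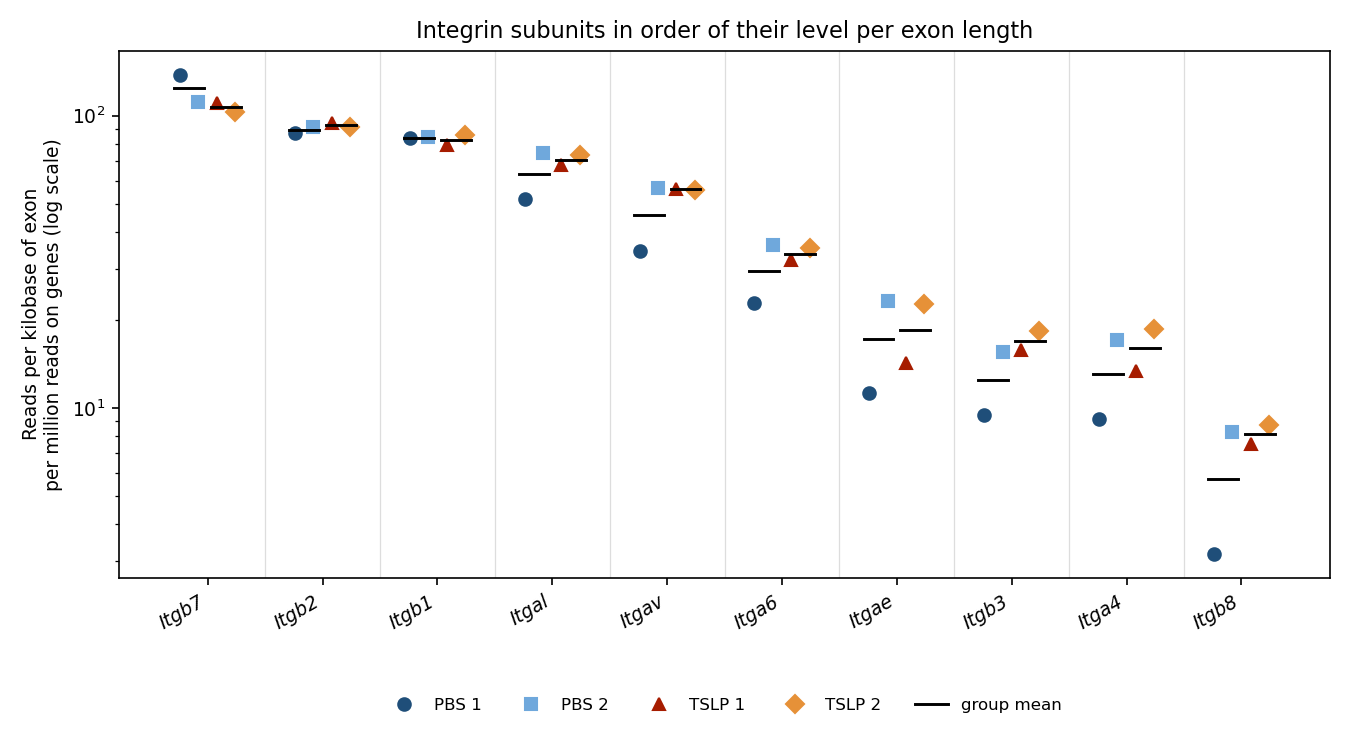
Level of each integrin subunit per exon length on a log scale, in cpm per kilobase of exon, ordered by the mean over the 4 libraries; symbols are libraries and black lines are group means. The levels fall from Itgb7 (103 to 138) to Itgb8 (3.18 to 8.78), and PBS 1 is the lowest symbol in every gene but Itgb7 and Itgb1.

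Summed over the chains on the exon scale, the 5 α chains reached 129 and 208 with PBS and 184 and 206 with TSLP. The 5 β chains reached 322 and 311 with PBS and 307 and 308 with TSLP, so their sum differed little between the libraries. The α sum was 0.402 of the β sum in PBS 1 and 0.598 to 0.669 of it in the other libraries. The groups overlapped (two-sided exact permutation test, p = 0.667, where 2 libraries against 2 cannot give less than 0.33). Itgb1, Itgb2 and Itgb7 together made up 91.2% to 96.1% of the β sum. With coding length the α sum was 0.728 of the β sum in PBS 1 and 1.05 to 1.14 of it in the other libraries.

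For 8 known heterodimers the level of the α chain was divided by that of the β chain on the exon scale. These are ratios of transcripts, which do not measure how much heterodimer is on the surface, and several pairs share a chain. Itgae stood at 0.0815 and 0.209 of Itgb7 with PBS and at 0.130 and 0.220 with TSLP, and Itga4 at 0.0662 and 0.153 of Itgb7 with PBS and at 0.122 and 0.181 with TSLP. In every library the transcript of β7 thus exceeded that of each of its α partners, and also that of both together. The LFA-1 pair was the nearest to equal levels, with Itgal at 0.592 and 0.815 of Itgb2 with PBS and at 0.717 and 0.807 with TSLP. The β1 pairs were below 1 as well, from 0.109 to 0.217 for Itga4, from 0.274 to 0.426 for Itga6 and from 0.411 to 0.710 for Itgav. The log2 difference between TSLP and PBS went from 0.37 to -0.31 without PBS 1 for Itgae:Itgb7 and from 0.56 to -0.05 for Itga4:Itgb7. It went from 0.13 to -0.10 for Itgal:Itgb2, and for the β1 pairs from 0.37 to -0.07 with Itga4, from 0.26 to -0.06 with Itga6 and from 0.37 to 0.01 with Itgav. For Itgae:Itgb7 the difference was also -0.0091 without TSLP 2, and for Itga4:Itgb7 and Itgal:Itgb2 it was 0.27 and 0.05. Without PBS 2, the differences of Itgae:Itgb7 and Itga4:Itgb7 were 1.05 and 1.17, and that of Itgal:Itgb2 was 0.36. For the β1 pairs they were then 0.81 with Itga4, 0.58 with Itga6 and 0.72 with Itgav. With the length trend removed, the differences were 0.29 for Itgae:Itgb7, 0.25 for Itga4:Itgb7 and -0.0014 for Itgal:Itgb2. For the β1 pairs this setting gave 0.13 with Itga4, 0.11 with Itga6 and 0.18 with Itgav.

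The αv pairs with β3 and β8 had the opposite order, with more of the α chain. Itgav was 3.62 and 3.65 times Itgb3 with PBS and 3.57 and 3.04 times with TSLP. This ratio was the steadiest of the 8, with a highest value 1.20 times the lowest, and PBS 1 did not stand apart in it. Both TSLP values lay below both PBS values by a log2 difference of -0.14 (two-sided exact permutation test, p = 0.33, the smallest that 2 libraries against 2 can give, and 0.889 with Benjamini-Hochberg adjustment over the 8 pairs). This difference moved to -0.27 with the length trend removed, to -0.26 without TSLP 1 and to -0.03 without TSLP 2. It was -0.15 without PBS 1 and -0.14 without PBS 2. Itgav was 10.8 and 6.85 times Itgb8 with PBS and 7.46 and 6.34 times with TSLP, with overlapping groups. The log2 difference of -0.32 for Itgav:Itgb8 became 0.0048 without PBS 1 and -0.65 without PBS 2. With the length trend removed it was -0.32. None of the other 7 pairs separated the groups (two-sided exact permutation tests, p from 0.667 to 1.0, adjusted p from 0.889 to 1.0). With coding length the ratio of Itgav to Itgb1 ranged from 0.826 to 1.43 and that of Itgal to Itgb2 from 0.816 to 1.12, so these 2 pairs lay around 1, whereas the ratios of Itgae and Itga4 to Itgb7 stayed below 1 and those of Itgav to Itgb3 and Itgb8 above 4.

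**Figure D4:**
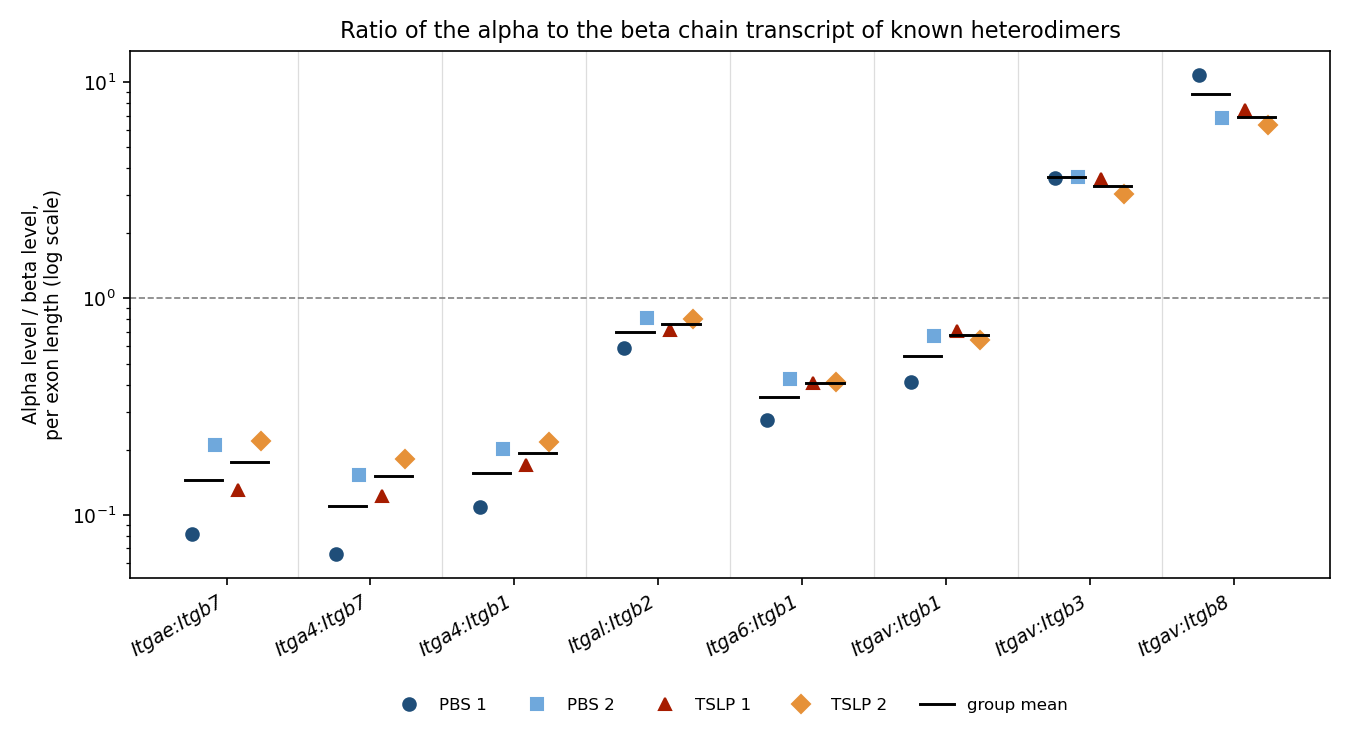
Ratio of the α to the β chain transcript for 8 known heterodimers, from levels per exon length, on a log scale; symbols are libraries, black lines are group means and the dashed line marks equal levels. The ratios to Itgb7, Itgb1 and Itgb2 lie below 1 and those of Itgav to Itgb3 and Itgb8 lie above 3, and PBS 1 is the lowest symbol in the first 6 pairs.

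The remaining 17 integrin subunit genes were read at a low level or not at all. Of these, 4 had no reads in any library (Itga8, Itgb2l, Itgb4 and Itgb6), 9 passed the filter, and 0 of the 9 had an unadjusted p under 0.05 by limma. Itga5, the α chain of the fibronectin receptor, had the most reads in total but not in TSLP 1, with 181 and 320 under PBS and 243 and 165 under TSLP. Itga3, a laminin receptor chain, was read 114 and 148 times under PBS and 301 and 97 times under TSLP, and Itga7, Itga9 and Itga10 had between 5 and 92 reads in a library. The groups overlapped in all 5 of these genes. Itga2, a collagen receptor chain, was read 0 and 10 times under PBS and 18 and 31 times under TSLP. Itga2, Itga2b, Itga10 and Itgam were among the genes that would not have passed the filter on the libraries of the lower group alone. No test is therefore given for them and nothing is read from the count of 9. Itgam and Itgax, the α chains of β2 integrins on myeloid and dendritic cells, were rare: Itgam was read 23 and 19 times under PBS and 4 and 7 times under TSLP, and Itgax at most 1 time in a library. Summed over the 17 genes the reads came to 47.1 to 68.0 cpm in a library, beside 2178 to 2888 cpm for the 10 subunits described above.

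Cells of other types were read through their markers. Before sequencing, CD4+ T cells of the Foxp3yfpCre mice had been enriched with magnetic beads. They were stained for CD4 and with a dead-cell dye, and Treg cells were gated from them in a cell sorter. How far these steps removed other cells was not tested. The CD8 T cell markers Cd8a and Cd8b1 summed to 7.83 to 13.4 cpm. The 4 B cell markers summed to 0.618 cpm in PBS 1 and to 10.4, 5.02 and 9.35 cpm in PBS 2, TSLP 1 and TSLP 2. Of the 6 myeloid markers, Adgre1 had no reads, and their sum of 38.3 to 59.6 cpm was mostly Cst3 (28.2 to 44.0). Cd68, a myeloid lysosomal protein, was at 15.4 and 6.15 cpm with PBS and at 5.02 and 1.56 with TSLP (unadjusted p = 0.0601 by limma), and its part in the integrin values was not tested. The mean of Lyz2 went the other way, with 0.0883 and 4.01 cpm under PBS, 3.15 and 3.89 under TSLP, and overlapping groups. Csf1r and Fcer1g reached at most 2.63 and 0.595 cpm in a library. Of the 4 dendritic cell markers, Flt3 had no reads and Xcr1 was the most abundant in all 4 libraries, and they summed to 7.65 to 13.4 cpm. The 3 NK cell markers summed to 2.38 to 10.5 cpm, with Ncr1 at 0, and the 3 epithelial markers to 9.83 to 20.7 cpm, mostly Epcam, which was at 20.3 and 13.5 cpm with PBS and at 12.6 and 9.74 with TSLP (unadjusted p = 0.240 by limma). The endothelial marker Cdh5 had no reads, while Pecam1, which leukocytes also express, was at 176 and 158 cpm with PBS and at 118 and 150 with TSLP (unadjusted p = 0.193 by limma). Like Cd68, Epcam and Pecam1 were lower with TSLP without overlap of the groups, an order that 14.4% of all genes tested had. The part of Epcam and Pecam1 in the integrin values was not tested. By limma, 0 of the tested genes in any of these lists had an unadjusted p under 0.05.

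The genes that switch integrins on and off inside the cell covered a wide range of levels. Talin and kindlin bind the tail of the β chain, and Rap1 and its partners bring talin to the membrane. Of 15 such activators 13 were tested, with 8 higher and 5 lower, a median log2 fold change of 0.05 and 0 with an unadjusted p under 0.05 by limma. Among the kindlins and talins, Fermt3 (the kindlin of blood cells) and Tln1 had 1731 to 2595 and 5480 to 8514 reads, whereas Tln2 had at most 33, Fermt2 at most 13 and Fermt1 none. Values of the next genes are given as normalized counts. Fyb, an adaptor that brings Rap1 partners to the T cell receptor, reached 9661 and 11554 under PBS and 11161 and 11870 under TSLP, and Stk4, a kinase that acts with Rassf5 downstream of Rap1, reached 8878 and 11919 under PBS and 11704 and 11479 under TSLP. The groups overlapped in both genes. Rassf5, a Rap1 effector that binds the αL chain, was at 2552 and 2480 under PBS and higher in each TSLP library, at 2862 and 3284, but did not pass the test (log2 difference of 0.28, unadjusted p = 0.212 by limma). Such an order, higher with TSLP without overlap, was found for 14.5% of all genes tested. Among 6 restrainers of integrin activation, Cytip, which holds back LFA-1 adhesion, and Flna, which competes with talin for β tails, were the most abundant (11721 to 15054 and 8494 to 11798 over the 4 libraries), while Dok1 and Itgb1bp1 had 302 to 535 and 290 to 452 reads, and 0 of the 6 had an unadjusted p under 0.05 by limma (median log2 fold change of 0.09). Of 16 adaptors and kinases of adhesion sites, 13 were tested, with 7 higher, 6 lower, a median of 0.05 and 0 with an unadjusted p under 0.05 by limma. Vasp, an actin regulator, and Ptk2b, a focal adhesion kinase, were the most abundant, at 3683 to 5631 and 2947 to 3196, and Parva and Parvb, which are parvins of adhesion sites, had no reads in any library while Parvg, the parvin of blood cells, had 363 to 677 reads.

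Of 15 genes for integrin ligands, 7 were tested and 1 had an unadjusted p under 0.05 by limma, beside 1.69% of all genes. It was Cdh1, which encodes E-cadherin, the ligand of αEβ7, and which is labelled in the study's volcano plot of these same libraries, so its value is not independent evidence. It passed the filter on low values only through the TSLP libraries, so nothing is read from this count. Cdh1 was not read under PBS and was read 36 and 44 times under TSLP, at least 13.5-fold higher than the limit of 3 reads per library, and its adjusted p by limma was 1.0. The bound was 15.6 without TSLP 1 and 11.5 without TSLP 2. Icam1, the main ligand of LFA-1, had normalized counts of 1233 and 912 under PBS and 1273 and 1186 under TSLP, and Lamc1, a laminin chain, had 1205 and 2428 under PBS and 2432 and 1956 under TSLP, both with overlapping groups. Madcam1, Vtn, Spp1, Lama2, Lama4 and Lamb1 had no reads in any library.

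Around αvβ8, the genes of latent TGF-β were read as well, of which 6 of 8 were tested, with 3 higher, 3 lower and 0 with an unadjusted p under 0.05 by limma. Lrrc32, which encodes GARP, the protein that displays latent TGF-β on Treg cells, had normalized counts of 15617 and 15341 under PBS and 16702 and 14910 under TSLP. Tgfb1 had 3546 and 2817 under PBS and 3236 and 2450 under TSLP. Both genes had overlapping groups, and unlike Itgb8 neither had its lowest value in PBS 1. Ltbp1, a latent TGF-β binding protein, was not read under PBS and was read 15 and 17 times under TSLP, at least 5.40-fold higher than the same limit. It too passed the filter only through the TSLP libraries, so nothing is read from the counts of this list.

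Membrane proteins that associate with integrins showed no call either. Of 11 such genes 10 were tested, with 5 higher, 5 lower, a median log2 fold change of -0.02 and 0 with an unadjusted p under 0.05 by limma. Cd53, a leukocyte tetraspanin, had normalized counts of 9948 and 9450 under PBS and 10124 and 11533 under TSLP, and Slc3a2, the CD98 heavy chain that binds β tails, had 6314 and 4383 under PBS and 4868 and 4749 under TSLP. Of 7 other genes of homing and adhesion, all were tested, 6 were higher, 1 was lower and 0 had an unadjusted p under 0.05 by limma (median of 0.14). Ccr7, the lymph node homing receptor, had normalized counts of 22992 and 16455 under PBS and 18705 and 16006 under TSLP, with overlapping groups. S1pr1, which guides exit from lymph nodes, had 5465 and 4749 under PBS and 5063 and 5240 under TSLP, both TSLP values lying between the PBS values.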

How the data were processed

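Reads of 50 bases were mapped by the authors to mm10 with Hisat2 and counted per gene with HTSeq; annotation and strand setting are not given in the sources used here. The deposited signal values are counts divided by a DESeq2 size factor per library, with no filter, and 100% lay within 0.01 of a whole number of reads, so reads were recovered. TSLP was compared with PBS over all 4 libraries by limma 3.58.1 (R 4.3.3, intensity trend) on log2(normalized count + 1), keeping the 11392 genes that reached a normalized count of 10 in 2 or more libraries, with Benjamini-Hochberg adjustment. This scale understates changes of low genes. Alternatives were edgeR 4.0.16 and DESeq2 1.42.0 on recovered reads, other scalings, filters and pseudocounts, a replicate block, removal of a loess trend over exon length, and leaving out each library. Exon lengths and positions came from GENCODE M21 (GRCm38). Members, lists and tests were chosen with earlier results of these data known. The genes named are the members, other subunits over 3 reads in both libraries of a group, the marker genes, and in each pathway list those with an unadjusted p under 0.05 and the 2 most abundant; Rassf5, Ltbp1, Parva, Parvb, Parvg, Tln1, Tln2, Fermt1, Fermt2, Fermt3, Dok1, Itgb1bp1, Gsg2, Cerkl, Gm13662, Gm13663, Itgax and genes at 0 were named after their values were seen.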

Additional observations from a re-analysis of the deposited data

How the results depend on the processing

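Under each of the 15 alternatives, 0 of the 10 integrin genes and 0 of all genes had an adjusted p under 0.05 (limma, edgeR or DESeq2). The counts at an unadjusted p under 0.05 moved more. Over all genes they were 192 as reported, 358 without a filter on low values, 404 with the length trend removed and a replicate block, and 79 to 1858 when a library was left out. Among the integrin genes they were 0 as reported, 1 with the replicate block, 1 with the block and the trend removed (Itgb8 both times) and 0 to 6 when a library was left out. In the pathway lists they were 1 as reported, 2 with DESeq2, 2 without a filter and 0 with a minimum of 50. The 1 reported was Cdh1, which passed the filter only through the TSLP libraries, so nothing is read from these counts. With a library left out, the remaining library of its group is assumed to vary like the other group. The log2 fold change then ranged from -0.35 to 0.67 for Itgae, -0.060 to 0.44 for Itgal and -0.084 to 0.78 for Itga4. For Itgav it ranged from 0.0023 to 0.69 and for Itga6 from -0.075 to 0.55. Among the β chains, the range was -0.058 to 0.017 for Itgb1, 0.011 to 0.10 for Itgb2 and 0.15 to 0.83 for Itgb3. It was -0.38 to -0.037 for Itgb7 and -0.0025 to 1.34 for Itgb8. The median of the 10 genes ranged from -0.02 to 0.61. With the length trend removed, with or without the block, Itgb1 was at 0.012. Of 9 neighbouring pairs in the order of levels, 4 did not overlap with exon length, 2 with the longest transcript and 1 with the coding length. Deviations of PBS 1 and TSLP 1 from their group means had a correlation of 0.00072 over 11392 genes. With 2 libraries in a group, this value cannot decide whether libraries of the same number share an origin. The block gave 258 genes at an unadjusted p under 0.05 by limma. The causes of these shifts were not tested.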
